A study of Mus musculus with 3 samples.

Results

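The transcription factor p53 (gene Trp53) and 9 of its regulators and targets were followed across sorted mouse blood stem and progenitor cells. The 10 genes were chosen by name: Trp53, its inhibitors Mdm2 and Mdm4, and the target genes Ccng1, Sesn1, Sesn2, Trp53inp1, Zmat3, Phlda3 and Eda2r. All 10 had a row among the 23393 named rows of the deposited table. RNA came from bone marrow of C57BL/6 mice, with 1 library for each of 3 populations of LSK cells (lineage-negative, Sca-1-positive, c-Kit-positive). The GFP+ HSCs were CD48- CD150+ hematopoietic stem cells with a Map17-GFP reporter on, entered as Map17-GFP+ under genotype. The GFP- HSCs came from the same CD48- CD150+ gate with the reporter off (Map17-GFP-). The MPPs were CD48+ CD150- multipotent progenitors, also Map17-GFP-. The sources used here give neither the ages of the mice nor whether animals were pooled. No repeat sort of any population was analysed here, so the spread between replicates is unknown and every comparison below is descriptive, without a test.

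p53 is kept scarce in resting cells because Mdm2, a ubiquitin ligase, binds it and marks it for destruction, while the related protein Mdm4 masks the part of p53 that activates genes. DNA damage and other stresses free p53 from both, and it then switches on genes that stop the cell cycle, repair DNA, alter metabolism or kill the cell. Mdm2 is itself such a target, which closes a feedback loop. Much of this control acts on the protein, so the Trp53 transcript does not measure p53 activity. In blood stem cells of the mouse p53 is known for restraining entry into the cell cycle and for limiting the number of stem cells.

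p53 binds a sequence made of a pair of half-sites, named the p53 half-site consensus. Windows from 250 bases before to 50 bases after a transcription start were available from RefSeq (GRCm38.p6) for 8 of the 10 genes, all but Zmat3 and Trp53inp1. A half-site reads the same on both strands, so 1 strand was searched. It occurred with no mismatch in the windows of Trp53, Mdm2, Ccng1 and Sesn1, 4 of 8 genes, and in 9.55% of all 27025 genes with a window. A full site was counted where 2 half-sites lay 0 to 13 bases apart with at most 1 mismatch in all. Ccng1 was the 1 gene of the 8 with a full site, against 0.718% of all genes. Among 36 other p53 targets with a window, 7 (19.4%) had a half-site and 2 (5.56%) a full site. The stretches are shown because they are the letters of these promoters that p53 could read; capitals mark the full site in Ccng1 and the half-site in the others, and each is written 5′ to 3′ on the gene's own strand.
Ccng1 (chr11:40755442-40755501, minus strand): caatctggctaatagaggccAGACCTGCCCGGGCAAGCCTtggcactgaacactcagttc
Trp53 (chr11:69580264-69580313, plus strand): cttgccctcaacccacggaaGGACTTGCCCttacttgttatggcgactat
Mdm2 (chr10:117710915-117710964, minus strand): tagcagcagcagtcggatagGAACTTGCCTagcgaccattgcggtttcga
Sesn1 (chr10:41887246-41887295, plus strand): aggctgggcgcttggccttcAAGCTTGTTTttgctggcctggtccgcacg
The capitals lay 195 to 176 bases before the start in Ccng1, with 1 mismatch and no spacer, 75 to 66 in Trp53, 186 to 177 in Mdm2 and 173 to 164 before the second start of Sesn1. A match is a run of letters and not a measured binding site. The promoter of Mdm2 known to respond to p53 lies in its first intron, outside the window searched.

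Values are normalized counts, called levels, and the depth behind them is unknown. The summed level was 25311805 in GFP+ HSCs, 25375047 in GFP- HSCs and 26689660 in MPPs. The sort genes followed the gates. Slamf1, which encodes CD150, had a level of 2219 in GFP+ HSCs, 2144 in GFP- HSCs and 17 in MPPs, and Cd48 had 64, 168 and 7744 in the same order. Pdzk1ip1, the gene also called Map17, had 5659, 3673 and 290. Ratios were taken as log2 of (level + 5), in the 11951 genes whose mean level reached 50 or more, and a gene was called apart at 2-fold or more. All 10 genes of the p53 set passed that filter, 7 of them with a mean level of at least 200.

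The p53 set was expressed in all 3 populations, and 0 of its 10 genes were 2-fold apart between the 2 HSC fractions. The median absolute log2 ratio between the fractions was 0.16 over the set and 0.14 over all genes compared, so the set lay no closer together than genes in general. Against MPPs, both HSC libraries had less Trp53 and more Mdm2, Mdm4 and Ccng1, each by under 2-fold. Past 2-fold for GFP- HSCs against MPPs were Zmat3, Phlda3 and Eda2r, the 3 with the lowest levels, and they did not share a direction. For GFP+ HSCs against MPPs Eda2r alone was past it. Of all genes compared, 17.1% and 22.3% were 2-fold apart in these 2 comparisons. Both HSC libraries were above MPPs for 7 of the 10 genes and below for 2, Trp53 and Phlda3. Of all genes compared, 45.7% had both HSC libraries above MPPs and 45.7% had both below. The gap between the highest and the lowest library had a median of 0.52 (log2) over the 10 genes and 0.49 over all genes compared.

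**Figure D1:**
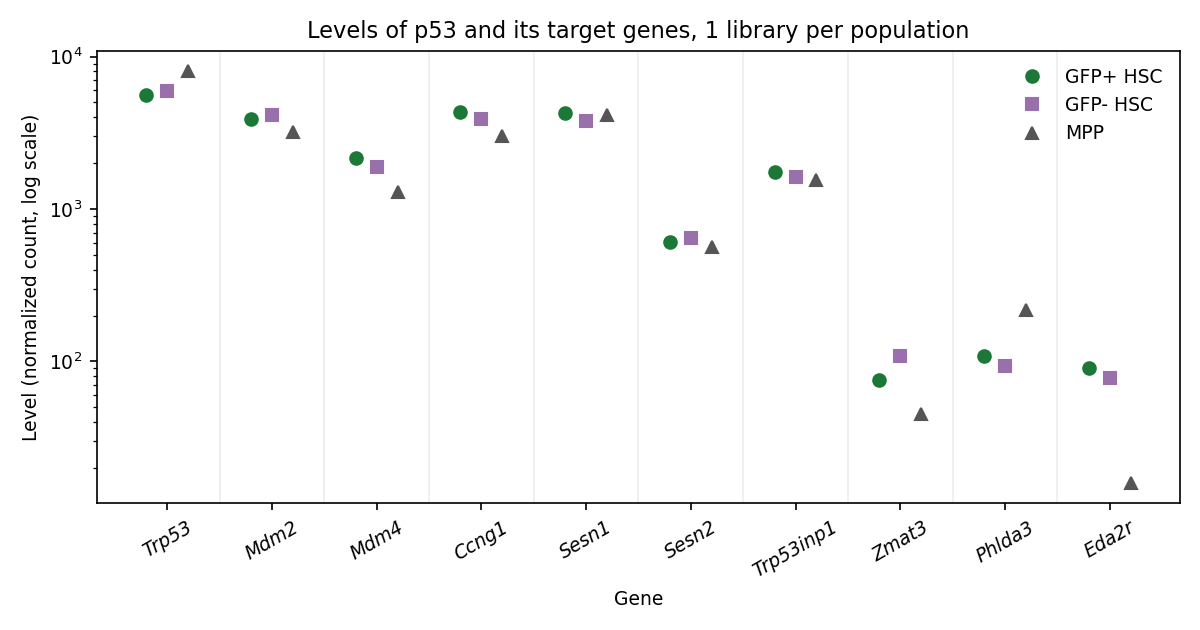
Level of each of the 10 genes (normalized count, log axis) in the GFP+ HSC, GFP- HSC and MPP libraries, 1 point per library and no error bars. Trp53 is highest in MPPs at 8004, and Zmat3, Phlda3 and Eda2r lie lowest on the axis, at 219 or less.

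Trp53 (chromosome 11, 69580348 to 69591873, GRCm38) had a level of 5587 in GFP+ HSCs, 5977 in GFP- HSCs and 8004 in MPPs. The MPP library was the high one, and the HSC fractions lay close together. The log2 ratio was -0.52 for GFP+ HSCs and -0.42 for GFP- HSCs, each against MPPs, and -0.10 between GFP+ and GFP- HSCs. Ratios at least as far from 0 were found in 44.9%, 44.4% and 62.8% of all genes for these comparisons. Wrap53, whose gene starts beside Trp53 on the other strand and whose product serves telomerase, ran in the same order at 663, 719 and 950. No exon of another gene overlapped an exon of Trp53 or of the other 9 genes in GENCODE M21. Processed pseudogenes of Trp53 and Mdm4 are annotated there, and the sources used here do not say how reads were shared with them.

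Mitosis genes moved the same way as Trp53. All 10 of 10 on the list (Cdk1, Aurka, Aurkb, Plk1, Bub1, Ccnb1, Ccnb2, Mki67, Top2a and Cdca3) were lower in GFP+ HSCs than in GFP- HSCs, and all 10 were lower in each HSC fraction than in MPPs. Their summed level was 17016 in GFP+ HSCs, 27783 in GFP- HSCs and 63426 in MPPs. Of all genes compared, 47.8% were lower in GFP+ than in GFP- HSCs. Against MPPs 50.6% were lower in GFP- HSCs and 49.2% in GFP+ HSCs. The part of dividing cells in the Trp53 difference was not tested. In bulk libraries, fewer cells of a type and less RNA per cell cannot be told apart.

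The inhibitors of p53 went the other way from Trp53 against MPPs. Mdm2 (chromosome 10, 117688875 to 117710758) had a level of 3874 in GFP+ HSCs, 4136 in GFP- HSCs and 3190 in MPPs. It was lowest in MPPs, with log2 ratios of 0.28 for GFP+ HSCs and 0.37 for GFP- HSCs against MPPs. Ratios at least as far from 0 were found in 66.4% and 49.1% of all genes. Mdm4 (chromosome 1, 132986105 to 133030587) had 2148 in GFP+ HSCs, 1883 in GFP- HSCs and 1297 in MPPs. It was highest in GFP+ HSCs and lowest in MPPs, with log2 ratios of 0.19 between the HSC fractions and of 0.73 (GFP+ HSCs) and 0.54 (GFP- HSCs) against MPPs. For the ratios against MPPs, 32.3% and 35.7% of all genes lay at least as far from 0. After correction for length and GC content of transcripts, the ratios of Mdm4 against MPPs were 0.52 for GFP+ HSCs and 0.35 for GFP- HSCs.

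Set against Trp53 in the same library, both inhibitors were therefore more abundant in the HSC fractions. The level per kb of transcript of Mdm2 was 0.722 times that of Trp53 in GFP+ HSCs, 0.721 times in GFP- HSCs and 0.415 times in MPPs. For Mdm4 the level per kb was 0.177 times that of Trp53 in GFP+ HSCs, 0.145 times in GFP- HSCs and 0.0747 times in MPPs. Mdm2 thus kept the same proportion to Trp53 in both HSC libraries, and Mdm4 was the scarcer inhibitor in each library on this per-length scale. These lengths are of the longest GENCODE M21 transcript, and another length would scale a proportion alike in all 3 libraries.

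Among the abundant targets, Ccng1 (chromosome 11, 40748552 to 40755309), which encodes cyclin G1, a partner of Mdm2 in the feedback on p53, had a level of 4324 in GFP+ HSCs, 3878 in GFP- HSCs and 3025 in MPPs. Like Mdm4 it was highest in GFP+ HSCs and lowest in MPPs, with log2 ratios of 0.16 between the HSC fractions and of 0.51 (GFP+ HSCs) and 0.36 (GFP- HSCs) against MPPs. Ccng1 is the gene with the full site printed above. Ccng2, its close relative, ran the opposite way at 2429, 2799 and 3282 in GFP+ HSCs, GFP- HSCs and MPPs.

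The sestrins, stress proteins that restrain the growth regulator mTOR, were nearly level. Sesn1 (chromosome 10, 41810574 to 41908436) had 4265 in GFP+ HSCs, 3802 in GFP- HSCs and 4157 in MPPs. Sesn2 (chromosome 4, 132492804 to 132510456) had 608 in GFP+ HSCs, 645 in GFP- HSCs and 563 in MPPs. Their highest and lowest libraries were 1.12-fold and 1.15-fold apart. Sesn1 dominated in each library, with a level per kb 6.40 times that of Sesn2 in GFP+ HSCs, 5.38 times in GFP- HSCs and 6.74 times in MPPs. Trp53inp1 (chromosome 4, 11156441 to 11174379), whose product acts with p53 in the stress response and in autophagy, was nearly level too, at 1740 in GFP+ HSCs, 1617 in GFP- HSCs and 1539 in MPPs. Its highest and lowest libraries were 1.13-fold apart.

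The scarce targets were the ones past 2-fold. Zmat3 (chromosome 3, 32334792 to 32365665), which encodes a zinc finger protein that binds RNA, had a level of 76 in GFP+ HSCs, 108 in GFP- HSCs and 45 in MPPs. It was highest in GFP- HSCs, 2.40-fold above MPPs, and lower in GFP+ than in GFP- HSCs with a log2 ratio of -0.48. That was the ratio farthest from 0 among the 10 genes in the comparison of the HSC fractions, and 8.9% of all genes lay at least as far. Phlda3 (chromosome 1, 135766085 to 135769134), which encodes an inhibitor of the survival kinase Akt, had 108 in GFP+ HSCs, 94 in GFP- HSCs and 219 in MPPs. It was high in MPPs alone, with a log2 ratio of -1.18 for GFP- HSCs and of -0.99 for GFP+ HSCs against MPPs, so that it passed the threshold in 1 of these comparisons.

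Eda2r (chromosome X, 97333837 to 97377234), which encodes a receptor for the A2 form of ectodysplasin, differed most. It had a level of 90 in GFP+ HSCs, 78 in GFP- HSCs and 16 in MPPs. Both HSC libraries were high and the MPP library was low, 5.62-fold for GFP+ HSCs and 4.88-fold for GFP- HSCs. The log2 ratios were 2.18 and 1.98, and 7.3% and 7.1% of all genes lay at least as far from 0. The ligand gene Eda had 109 in GFP+ HSCs, 102 in GFP- HSCs and 32 in MPPs. Edar, the receptor for the other form of the ligand, had 646, 460 and 59 in the same order, so these 3 genes were each higher in the HSC libraries. Eda2r and Eda lie on the X chromosome, and Xist, which is expressed from the inactive X of female cells, had 3087 in GFP+ HSCs, 6137 in GFP- HSCs and 2262 in MPPs. The part of the sex of the animals was not tested.

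**Figure D2:**
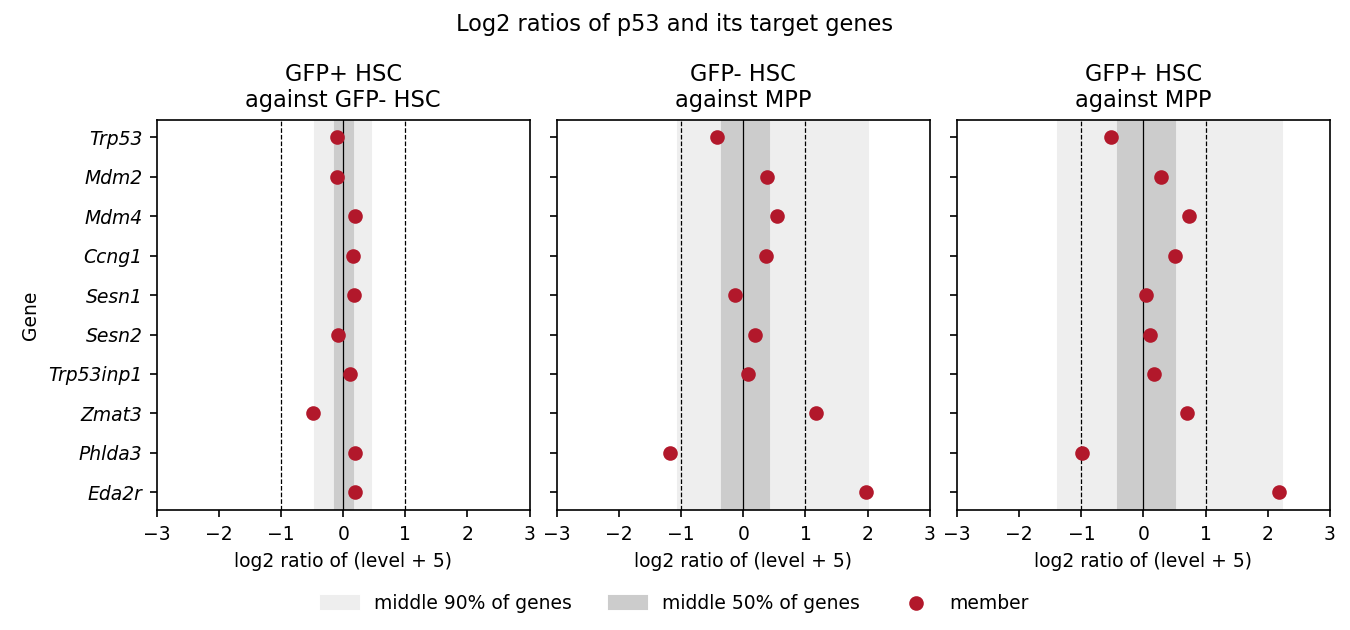
Log2 ratio of (level + 5) for each gene (red points, 1 library against 1 library) in 3 comparisons, over the middle 50% and 90% of all genes compared (grey bands), with dashed lines at 2-fold. Zmat3 lies just left of the 90% band between the HSC fractions, and Phlda3 lies left of it for GFP- HSCs against MPPs.

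Counts of genes apart are given beside the share of all genes. In the comparison of GFP+ with GFP- HSCs, which divides 1 stem cell gate by the reporter, 0 of 10 genes were 2-fold apart, and 1.28% of all genes were. The background by direction was 0.41% higher and 0.87% lower. Without a threshold, 6 of 10 were higher and 4 lower in GFP+ HSCs, against 51.7% and 47.8% of all genes, and the median log2 ratio was 0.13, with 0.01 over all genes. At the lower threshold of 1.5-fold the count was also 0 of 10, against 5.55% of all genes. For GFP- HSCs against MPPs, Zmat3 and Eda2r, 2 of 10, passed 2-fold on the higher side and Phlda3, 1 of 10, on the lower side, against 11.6% and 5.53% of all genes. Without a threshold 7 were higher and 3 lower, against 49.2% and 50.6%. At 1.5-fold the count was still 3 of 10, against 32.8% of all genes. The median log2 ratio was 0.28, and -0.01 over all genes. For GFP+ HSCs against MPPs, 1 of 10 was at least 2-fold higher (Eda2r) and 0 lower, against 13.7% and 8.61% of all genes. Without a threshold 8 were higher and 2 lower, against 50.7% and 49.2%, and at 1.5-fold 4 of 10 were apart, against 40.3%. The median was 0.23, and 0.01 over all genes. These comparisons share libraries, so they are not independent of each other.

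Genes of low level were more often apart. The filter took the mean over the same libraries, so a gene could pass through the libraries where it was high. Eda2r at 16 and Zmat3 at 45 in MPPs were under 50 there and passed through the HSC libraries. The shares and counts in the low band are therefore not independent of the filter. For GFP- HSCs against MPPs, 44.5% of the genes with a mean level of 50 to under 200 were 2-fold apart, and so were all 3 genes of the p53 set in that band. Where the mean level was 200 or more the share was 12.7%, and 0 of the 7 genes of the p53 set were apart. For GFP+ HSCs against MPPs the shares were 49.7% and 17.9%, with 1 of 3 and 0 of 7 genes of the set.

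**Figure D3:**
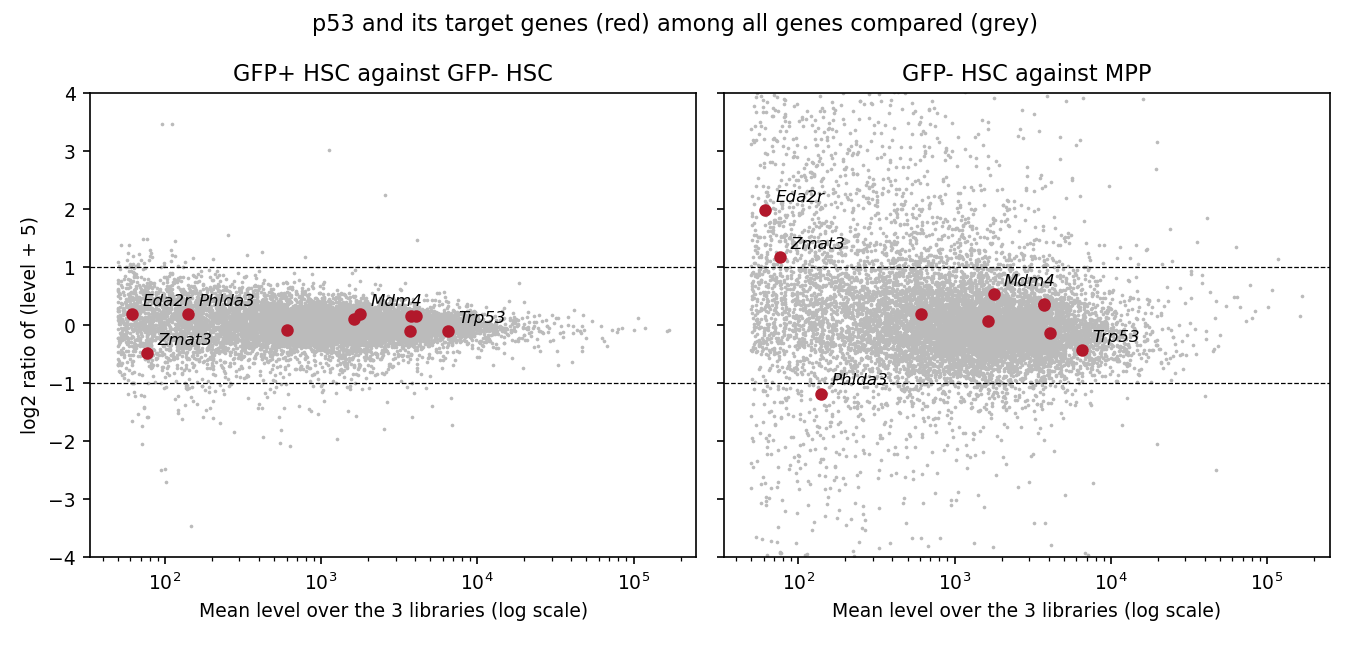
Log2 ratio of (level + 5) against the mean level over the 3 libraries (log axis), with the p53 set in red among all genes compared in grey and dashed lines at 2-fold; 191 genes lie beyond the axis in the right panel and 0 in the left. The 3 red points past 2-fold in the right panel are Eda2r, Zmat3 and Phlda3, all at mean levels under 200.

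Other targets of p53, a list of 44 genes named from general knowledge but with earlier results of these data known, spread to both sides. Of these, 39 passed the filter. Between the HSC fractions 20 stood higher and 18 lower in GFP+ HSCs, with 2 of 39 past 2-fold on the lower side, against 0.87% of all genes. These were Gdf15, a secreted stress factor, at 118 in GFP+ HSCs and 299 in GFP- HSCs, and Steap3, a metal reductase used in iron uptake, at 179 and 386. The 3 highest ratios belonged to the autophagy gene Dram1 (119 and 73), the polo-like kinase gene Plk2 (8102 and 5509) and Rrm2b (668 and 482), which encodes the ribonucleotide reductase subunit that serves DNA repair. Lrdd, now called Pidd1, which activates a death-related caspase, stood at 686 and 962.

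Against MPPs the other targets lay on both sides. In GFP- HSCs 5 of 39 passed 2-fold on the higher side and 5 on the lower side, against 11.6% and 5.53% of all genes. Without a threshold 17 were higher and 22 lower, with a median log2 ratio of -0.06. In GFP+ HSCs the counts past 2-fold were 7 and 7, against 13.7% and 8.61% of all genes. Without a threshold 16 were higher and 23 lower, with a median of -0.25, whereas the genes of the p53 set had a median of 0.23. Higher in both HSC fractions were Ak1, an adenylate kinase gene, at 1186 in GFP+ HSCs, 1013 in GFP- HSCs and 212 in MPPs, and Ddit4, whose product restrains mTOR, at 1664, 1403 and 407. The adhesion gene Perp followed at 284, 210 and 67. Lower in both were Sulf2, which trims heparan sulfate, at 93, 93 and 562, Steap3 with 849 in MPPs and Dram1 with 261. The metabolic regulator gene 9630033F20Rik, now called Tigar, had 125 in GFP+ HSCs, 162 in GFP- HSCs and 390 in MPPs. Chosen after their values were seen, Fas, the death receptor gene, stood at 157, 126 and 16, Plk3 at 1300, 1535 and 523, and the DNA repair gene Xpc at 3938, 3551 and 7894.

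Cdkn1a and the p53 targets of the Bcl2 family were not members of the set. Cdkn1a, the cell cycle inhibitor p21, had 1273 in GFP+ HSCs, 1667 in GFP- HSCs and 1912 in MPPs. Bbc3 had 731, 1004 and 961, Bax 1268, 1451 and 1718, and Pmaip1 137, 181 and 1129 in the same order, these 3 being death genes of the Bcl2 family. All 4 were lower in GFP+ than in GFP- HSCs, with a median log2 ratio of -0.39, and 47.8% of all genes were lower there. Pmaip1 was the 1 of them that was 2-fold apart from MPPs.

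The regulators of p53, a list of 33 kinases, cofactors and ubiquitin pathway genes of which 31 passed the filter, lay on both sides as well. Between the HSC fractions 15 were higher and 16 lower in GFP+ HSCs, and 0 of 31 were 2-fold apart, close to the 1.28% of all genes. The deubiquitinase gene Usp7, which stabilizes both Mdm2 and p53, had 7055 in GFP+ HSCs, 5014 in GFP- HSCs and 6538 in MPPs. Trp53bp2, whose product turns p53 toward death genes, had 1674, 1289 and 1310. At the other end stood the damage checkpoint kinase gene Chek1 at 836 in GFP+ HSCs, 1327 in GFP- HSCs and 2069 in MPPs, followed by the ubiquitin ligase gene Trim24 (889 and 1035 in the HSC fractions) and the methyltransferase gene Setd7 (577 and 668).

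Against MPPs 1 of 31 regulators was 2-fold apart in GFP- HSCs and 2 of 31 were in GFP+ HSCs, with 17.1% and 22.3% of all genes. Ndn, an imprinted gene whose product binds p53, had 2383 in GFP+ HSCs, 1836 in GFP- HSCs and 87 in MPPs, and was the 1 gene higher in both. Chek1 was the gene lower in GFP+ HSCs. The acetyltransferase gene Kat2b had 769, 749 and 463, and the kinase gene Hipk2 had 3378, 3140 and 2072. On the lower side were the methyltransferase gene Setd8, now called Kmt5a, at 2647, 2843 and 4925, and the cofactor gene Brd7 at 1768, 1959 and 2848. Also named after their values were seen are Cdkn2a, Atm and Atr. Cdkn2a, which encodes the Mdm2 inhibitor Arf, was listed at 0 in GFP+ HSCs, 1 in GFP- HSCs and 0 in MPPs. Atm and Atr, the kinases that report DNA damage to p53, were close to level, with Atm at 2044, 1912 and 1778 and Atr at 2418, 2403 and 2641.

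Close relatives of the 10 genes, 13 in number with 9 past the filter, leaned to the HSC side. For GFP- HSCs against MPPs 5 of 9 passed 2-fold on the higher side and 0 on the lower, against 11.6% and 5.53% of all genes, and GFP+ HSCs gave these counts too, against 13.7% and 8.61%. Besides Eda and Edar these were Phlda2, an imprinted gene, at 264 in GFP+ HSCs, 239 in GFP- HSCs and 19 in MPPs, Trp53inp2 at 751, 711 and 332, and Zmat1 at 785, 660 and 303. Phlda2 was thus high where Phlda3 was low, while Phlda1 was nearly level at 135, 141 and 151. Sesn3, the third sestrin, had 412 in GFP+ HSCs, 367 in GFP- HSCs and 230 in MPPs. Zmat2 had 1603, 1658 and 1992. The paralogs of p53 itself were listed at or near 0, with Trp63 at 7 in GFP+ HSCs and listed at 0 in the others, and Trp73 at 4 in MPPs and listed at 0 in both HSC libraries. Zmat4 was listed at 0 in all 3, and Edaradd, the adaptor of the Edar receptor, had 1, 4 and 31.

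**Figure D4:**
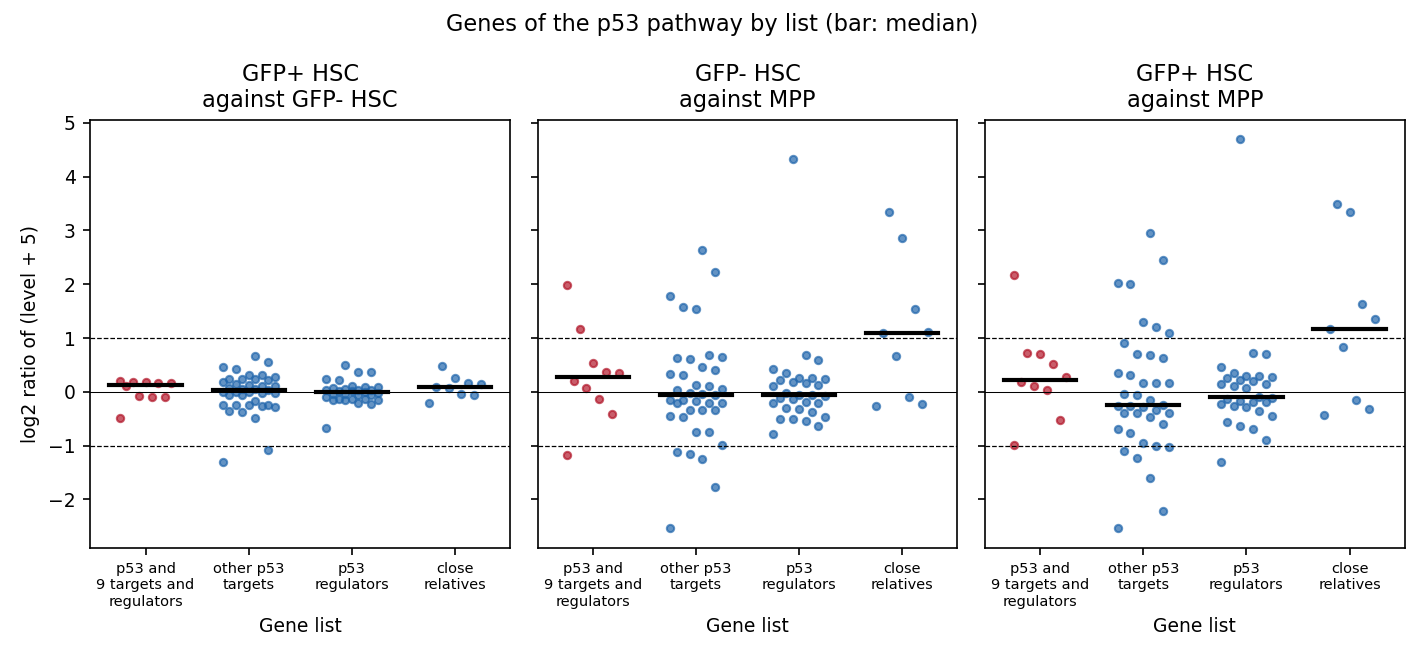
Log2 ratio of (level + 5) for the 10 genes of the p53 set (red), other p53 targets, p53 regulators and close relatives (blue) past the filter, 1 point per gene with a bar at the median and dashed lines at 2-fold. The medians of the first 3 lists lie between -0.25 and 0.28, and the close relatives have medians of 1.09 for GFP- HSCs and 1.17 for GFP+ HSCs against MPPs.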

How the data were processed

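RNA was profiled in 3 sorted populations with 1 library each. Per the labels' protocols, TRIzol and a PicoPure kit gave the RNA, and libraries were made from few cells with the SMART-seq v4 chemistry, which does not mark the strand. STAR, DESeq2 and mm10 are named in the submitters' processing notes, and the sources used here give no versions or counting tool. The table as deposited holds normalized counts, rounded by the authors to whole numbers and treated as a score because the reads could not be recovered, so depth is unknown. Of 23420 rows, 27 carried a date in place of a symbol and were left out.

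Ratios were log2 of (level + 5), which understates differences of low genes; folds are ratios of levels. The genes, lists and rules were chosen with earlier results of these data known. Named from the target and regulator lists were, in each comparison, the 3 highest and 3 lowest ratios with a mean level of at least 100. Coordinates are RefSeq GRCm38, and transcript lengths are GENCODE M21. The calculation was checked on simulated libraries with Python 3.11.15, numpy 2.4.6, pandas 2.3.3, statsmodels 0.14.6 and matplotlib 3.10.9. Other settings tried were a pseudocount of 1 or 20, a minimum mean of 10, 200 or none, equal totals or equal upper quartiles between libraries, removal of trends on abundance or on length and GC content, thresholds of 1.5-fold and 4-fold, and list means.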

Additional observations from a re-analysis of the deposited data

How the results depend on the processing

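No paired analysis was possible because each population had 1 library, and no library could be left out. Of 87 values of the 10 genes under the alternatives of ratio, filter and scaling, 87 kept their direction for GFP+ against GFP- HSCs. For each HSC fraction against MPPs 86 did. The exceptions were Trp53inp1 for GFP- HSCs (-0.05) and Sesn2 for GFP+ HSCs (-0.01), both with the trend on length and GC content removed. These counts include the changes of pseudocount and of minimum mean, which cannot turn a direction. Only the changes of scaling and the removal of trends could have done so. Against MPPs Trp53 ranged from -0.42 to -0.31 for GFP- HSCs and from -0.52 to -0.38 for GFP+ HSCs. Zmat3 left the 2-fold call for GFP- HSCs against MPPs at a pseudocount of 20 (0.98) and with the abundance trend (0.71) or the length and GC trend (0.96) removed; the cause was not tested. Phlda3 gained it for GFP+ HSCs against MPPs at a pseudocount of 1 (-1.01) and with the abundance trend removed (-1.35), which made the count of genes apart 2 in both cases.

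With a minimum mean of 200, 7 genes of the set were left. Of these, 0 were 2-fold apart from MPPs in either HSC fraction, as the scarce genes are then left out by construction. The regulator median for GFP+ HSCs against MPPs turned to 0.0745. The 29 regulators left did not include Ppp1r13l (-0.27) and Trp53rk (-0.45), whose mean levels were under 200. With the length and GC trend removed, the regulator median for GFP- HSCs against MPPs was -0.19 and the median of the other targets for GFP+ HSCs against MPPs was -0.0142. The mean of the p53 set for GFP+ against GFP- HSCs was 0.0247. At 1.5-fold, 1 of 31 regulators was apart between the HSC fractions, against 5.55% of all genes. For GFP- HSCs against MPPs 17 of 39 other targets and 5 of 31 regulators were, against 32.8% of all genes. For GFP+ HSCs against MPPs 4 of 10 genes of the set, 22 of 39 other targets and 7 of 31 regulators were, against 40.3%. At 4-fold, 0 of 39 other targets were apart between the HSC fractions. For GFP- HSCs against MPPs 0 of the 10 genes of the set and 3 of 39 other targets were. Eda2r, 4.88-fold by level, had a log2 ratio of 1.98 there with 5 added to each level, just under the threshold. For GFP+ HSCs against MPPs 6 of 39 other targets and 1 of 31 regulators were apart. The share of all genes at 4-fold was not computed, so these counts have no background beside them. A value counted as moved at 0.1 on the log2 scale. Without repeat libraries, none of these settings shows how far the levels would vary between sorts.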

Other observations

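Markers of other cell types are given as values in the order GFP+ HSCs, GFP- HSCs and MPPs. Neutrophil genes, 10 on the list, had a summed level of 2220, 1385 and 16948, and without Elane, which progenitors express at 425, 557 and 16125, the other 9 summed to 1795, 828 and 823. Among those 9, Ngp had 499, 165 and 94, and Chi3l3 had 183, 12 and 94. Erythroid genes summed to 1613, 4059 and 2526, with Hbb-b1 and Hba-a1 listed at 0 in each library. B cell genes summed to 896, 765 and 1298, with Ms4a1 and Pax5 listed at 0 in both HSC libraries, and T and NK cell genes summed to 903, 1608 and 8280, with Cd3e and Cd3g listed at 0 in both HSC libraries. Stromal genes summed to 982, 497 and 45, with Col1a2 at 679, 457 and 28 and Col1a1 at 294, 22 and 17. HSC genes summed to 64190, 52793 and 7184, and progenitor genes to 10700, 15843 and 244754. Their part in the differences of the p53 set was not tested.

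Immediate-early genes, which respond to cell isolation as well as to signals, were among the most abundant transcripts, with a summed level over 10 genes of 858894, 894662 and 618455. All 10 were higher in GFP- HSCs than in MPPs, against 49.2% of all genes, with a median log2 ratio of 0.50. In GFP+ HSCs 9 of 10 were higher than in MPPs, against 50.7%, and Atf3 was lower. Between the HSC fractions 8 of 10 were lower in GFP+ HSCs, against 47.8%. Btg2 and Gadd45a were picked after their values were seen. Btg2, a p53 target that also responds quickly to stimuli, had 14781, 17483 and 17644. It did not run in the order of the immediate-early sum. Gadd45a, another damage-responsive target, had 535, 632 and 703. The 4 Y-linked genes Ddx3y, Kdm5d, Eif2s3y and Uty and Xist were all detected in each library, with Ddx3y at 3251, 2475 and 2490.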
